A study of Mus musculus with 3 samples.

Results

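The genes of the heat shock proteins and their partner chaperones were examined in mouse haematopoietic stem cells. Members were taken by gene symbol from the platform annotation: the Hspa, Hspb, Hspd, Hspe, Hsph and Hsp90 genes, the Dnaja, Dnajb and Dnajc genes, the Cct, Bag and Hsf genes, and Tcp1, Stip1, Cdc37 and Ahsa1. Only probe sets that the annotation assigns to a single gene were used, which gave 90 members among 19938 measured genes. These 90 genes were covered by 113 probe sets, and 8 of them had more than 1. A further 10 probe sets that name a member together with other genes were left out. Hsf1, Hsp90ab1 and Hspa1b had no probe set of their own under this rule and are not analysed here.

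All samples are wild type. The mice were C57Bl/6, aged 6 to 10 weeks, and gave bone marrow from which KLS SLAM cells were sorted. These lack lineage markers, CD48 and CD41 and carry c-Kit, Sca-1 and CD150, a gate known to enrich for long-term repopulating stem cells. There were 3 single-colour arrays, numbered 1, 2 and 3 as in the sample titles, with no second genotype or treatment. The labels do not say whether the arrays came from separate animals, so the p-values below measure only the spread between these samples, which may be technical.

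Chaperones bind unfolded or partly folded proteins and keep them from aggregating. Hsp70 proteins do so in an ATP cycle in which J-domain proteins deliver clients and stimulate ATP hydrolysis, while Hsp110 and Bag proteins release the nucleotide. Hsp90 with its co-chaperones matures kinases and receptors, the ring-shaped CCT complex folds actin and tubulin, and the Hsp60 and Hsp10 chaperonin folds proteins imported into mitochondria. Heat shock factors drive many of these genes by binding repeated GAA units, and the unfolded protein response drives those of the endoplasmic reticulum (ER) through the ER stress element. Haematopoietic stem cells are known for a low rate of protein synthesis and for poor tolerance of misfolded protein.

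Promoter windows that hold these elements are shown because they mark which members carry the letters of each stress pathway. RefSeq windows of build GRCm38.p6, from 250 bases before to 50 after an annotated start, were matched by gene ID to 75 members (95 windows). Those with no window were Bag4, Cct4, Dnajc11, Dnajc12, Dnajc18, Dnajc2, Dnajc22, Dnajc30, Dnajc5, Hsf4, Hsp90aa1, Hspa13, Hspa8, Hspa9 and Hspb2. The heat shock element was searched on both strands as 3 units of alternating sense, GAA, TTC and GAA, each 2 bases of any kind from the next. Of the 75 members, 4 held it (5.33%), beside 179 of 27025 genes in the whole table (0.662%). These 4 were Hspd1, Hspe1, Dnajb6 and Hsph1, and capitals mark the element in the sequences below, written 5′ to 3′ on the strand of the gene.
Hspe1, chr1:55087898-55088197 (+ strand): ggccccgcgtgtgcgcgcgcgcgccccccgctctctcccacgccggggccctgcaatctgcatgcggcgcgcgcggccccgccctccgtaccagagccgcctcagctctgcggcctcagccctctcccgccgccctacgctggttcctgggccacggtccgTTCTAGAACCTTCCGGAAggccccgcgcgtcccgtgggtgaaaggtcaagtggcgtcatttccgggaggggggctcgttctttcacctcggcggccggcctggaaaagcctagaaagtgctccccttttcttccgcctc
Dnajb6, chr5:29735648-29735947 (+ strand): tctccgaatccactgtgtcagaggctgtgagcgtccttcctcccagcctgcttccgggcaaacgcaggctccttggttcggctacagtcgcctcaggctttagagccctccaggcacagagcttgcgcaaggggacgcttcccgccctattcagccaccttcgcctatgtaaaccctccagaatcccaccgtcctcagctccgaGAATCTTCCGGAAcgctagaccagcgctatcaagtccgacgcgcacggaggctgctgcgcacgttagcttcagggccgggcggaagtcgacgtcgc
Hsph1, chr5:149636287-149636586 (- strand): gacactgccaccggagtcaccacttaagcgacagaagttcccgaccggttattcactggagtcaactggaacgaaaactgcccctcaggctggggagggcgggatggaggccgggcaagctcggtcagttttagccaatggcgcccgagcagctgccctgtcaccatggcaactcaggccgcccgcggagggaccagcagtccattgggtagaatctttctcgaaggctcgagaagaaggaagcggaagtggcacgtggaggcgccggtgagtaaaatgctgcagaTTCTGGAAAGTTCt
The windows of Hspe1 and Hspd1, genes that start in opposite directions, share 285 bases, so the element counted for each of them is the same stretch of DNA. In Hspe1 the matching letters overlap and run from position -89 to -72 relative to the start. In Dnajb6 they lie at -46 to -34, and in Hsph1 after the start, at 37 to 49. Dnajb6 and Hsph1 each have a second window, from another start, that holds the same element.

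The ER stress element was searched on both strands as CCAAT and CCACG with 9 bases of any kind between them. It was held by 3 of the 75 members (4%), beside 37 of the 27025 genes (0.137%). The 3 were Hspa5, Hsp90b1 and Dnajc3, whose proteins work in the ER lumen, and capitals again mark the element.
Hspa5, chr2:34771840-34772139 (+ strand): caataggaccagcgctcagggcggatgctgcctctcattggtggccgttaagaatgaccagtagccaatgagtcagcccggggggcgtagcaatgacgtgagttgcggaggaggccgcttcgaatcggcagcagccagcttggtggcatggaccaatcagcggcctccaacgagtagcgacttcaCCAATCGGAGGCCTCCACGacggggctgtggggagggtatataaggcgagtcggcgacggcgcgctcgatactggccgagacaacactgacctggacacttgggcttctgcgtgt
Hsp90b1, chr10:86705395-86705694 (- strand): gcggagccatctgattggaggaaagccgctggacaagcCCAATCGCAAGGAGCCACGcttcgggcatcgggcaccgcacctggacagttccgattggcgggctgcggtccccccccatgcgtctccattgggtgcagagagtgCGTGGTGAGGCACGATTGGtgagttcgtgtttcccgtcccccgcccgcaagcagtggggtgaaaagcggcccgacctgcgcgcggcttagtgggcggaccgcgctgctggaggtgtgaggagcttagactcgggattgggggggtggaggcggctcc
Dnajc3, chr14:118937682-118937981 (+ strand): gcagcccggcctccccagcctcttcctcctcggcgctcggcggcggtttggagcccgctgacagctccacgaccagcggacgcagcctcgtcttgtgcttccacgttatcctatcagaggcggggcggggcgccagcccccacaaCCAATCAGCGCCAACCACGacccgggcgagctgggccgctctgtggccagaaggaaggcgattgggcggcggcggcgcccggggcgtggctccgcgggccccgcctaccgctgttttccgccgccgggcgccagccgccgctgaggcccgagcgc
Hsp90b1 holds the element at -212 to -194 and again, on the other strand, at -107 to -89. In Hspa5 it lies at -65 to -47 and in Dnajc3 at -105 to -87. A match describes the letters of a window and is no evidence of binding, and the lack of one says only that these letters are not in that window.

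Levels are given as log2 of the deposited intensity. Each probe set has its own affinity, so the level of a gene is not ranked against that of another gene, and each was set against a background range. The limit of that range was, on each array, the 95th percentile of 1227 genes for taste, olfactory and vomeronasal receptors, which serve the sense organs. The limits of arrays 1, 2 and 3 were 6.30, 5.98 and 5.77 log2. A gene below it may still be transcribed. Of the 90 members, 61 were above the limit on all 3 arrays, beside 36.8% of all genes and 31 of the 1227 receptor genes. With the 99th percentile as the limit, 41 members were above it, beside 17.4% of all genes. At the 95th, a further 14 members passed it on 1 or 2 arrays and 15 on none, beside 42% of all genes on none. In a sorted population, fewer cells with a transcript and less RNA per cell cannot be told apart.

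**Figure D1:**
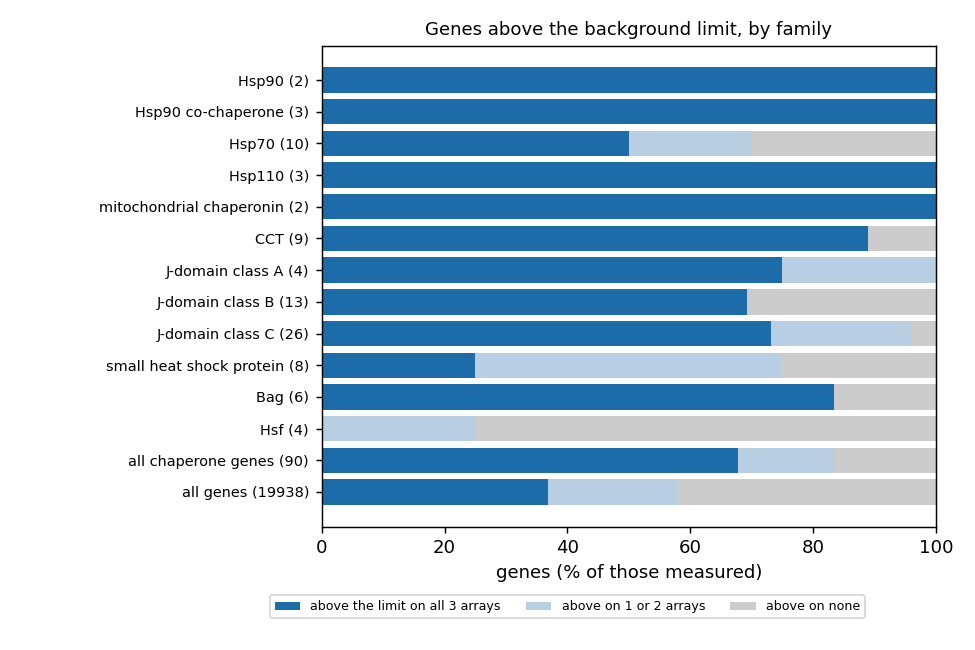
Share of measured genes (%, horizontal axis) above the background limit on all 3 arrays, on 1 or 2 arrays and on none, by family, with the number of genes in brackets. The Hsp90, Hsp110 and mitochondrial chaperonin bars are filled to 100%, the Hsf bar has none above on all arrays, and the dark bar reaches 67.8% for the 90 chaperone genes, beside 36.8% for all 19938 genes.

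The sorted population matched its label in part. Kit was at 10.01 ± 0.23 log2 and Slamf1, the gene of CD150, at 6.51 ± 0.13 (SD, n = 3), and of 6 measured stem cell genes 5 were above the limit on all arrays. Itga2b, which the gate excludes as CD41, lay just above it at 6.37 ± 0.14, and Cd48 passed it on array 3 alone. Slamf1 was close to the limit as well. On array 1, where the limit was 6.30, Slamf1 gave 6.41 and Itga2b 6.51, while on arrays 2 and 3 Slamf1 was the higher. Of the markers of other cells, 6 of 7 neutrophil genes were above the limit on all arrays, and their summed linear intensity was 8927 on array 1, 14990 on array 2 and 13833 on array 3. Of 3 megakaryocyte genes 2 were above it, and their sums were 284, 261 and 415 on arrays 1, 2 and 3. The counts above it on all arrays were 2 of 4 for stroma and endothelium (Col1a1 and Cxcl12), 1 of 4 for erythroid and 1 of 4 for monocyte and macrophage genes. They were 0 of 3 for B cell and 0 of 4 for T and NK cell genes. All of these marker counts stand beside 36.8% of all genes. With so few genes, a count near that share does not show whether such cells were present. The median intensity was between 56.7 and 60.4 on the arrays, and Pearson's r across genes between 0.940 and 0.951.

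The cytosolic and ER Hsp90 genes were far above the limit on every array. Hsp90aa1, the stress-responsive cytosolic form, gave 10.59, 10.74 and 10.97 log2 on arrays 1, 2 and 3. Hsp90b1, which encodes the ER form Grp94, gave 10.96, 10.92 and 11.15. The arrays differed by 1.3-fold at most for Hsp90aa1 and 1.17-fold for Hsp90b1. The co-chaperone genes were above the limit as well and spread more. Stip1, whose protein hands clients from Hsp70 to Hsp90, gave 8.12, 7.30 and 8.35. Ahsa1, the activator of the Hsp90 ATPase, gave 8.63, 7.69 and 8.78. Both were low on array 2, by 2.08-fold for Stip1 and 2.13-fold for Ahsa1 between the lowest and highest array. Cdc37, which brings kinases to Hsp90, gave 7.35, 8.07 and 8.10 and was low on array 1 instead.

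Of the 10 Hsp70 genes, 5 were above the limit on all arrays, beside 36.8% of all genes, and 3 on none, beside 42%. Hspa8, the constitutive cytosolic Hsc70, gave 11.96, 11.42 and 11.74 log2 on arrays 1, 2 and 3. Hspa5, the ER form BiP, gave 10.11, 9.34 and 10.04, and Hspa9, the mitochondrial mortalin, gave 9.28, 9.80 and 9.64. Hspa8 and Hspa5 were thus lowest on array 2 and Hspa9 on array 1. Hspa14, which forms a ribosome-associated pair with the J-domain protein Dnajc2, gave 7.09, 7.10 and 7.75. Dnajc2 gave 8.30, 8.10 and 8.79, so both partners were above the limit and highest on array 3. So were 45.9% of all genes with means of 7 to 8 log2 and 53.9% of those from 8 to 9 highest on array 3. Hspa2, best known from male germ cells, was above the limit on all arrays at 7.28, 7.28 and 6.78.

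The other 5 Hsp70 genes were not above the limit on every array. Hspa1a, the classic heat-inducible Hsp70, gave 6.58 on array 1, 5.97 on array 2 and 5.90 on array 3. It passed the limits of arrays 1 and 3 and missed that of array 2 by 0.01 log2. Hspa1a is nearly identical to Hspa1b, so its signal cannot be assigned to one copy with certainty. Its neighbour Hspa1l, a testis form, gave 5.54, 4.60 and 4.93 and stayed below throughout. Hspa13, a microsome-associated member, gave 6.17, 6.19 and 7.87 and was high on array 3 alone, 3.24-fold above array 1. The divergent members Hspa12a, at 5.14, 4.86 and 5.16, and Hspa12b, at 5.82, 5.87 and 5.39, were below it on every array.

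All 3 Hsp110 genes, which encode nucleotide exchange factors of Hsp70, were above the limit on all arrays, beside 36.8% of all genes. Hspa4 gave 8.82, 9.17 and 9.28 log2 on arrays 1, 2 and 3. Hsph1, a heat-inducible member with the element shown above, gave 7.61, 6.99 and 7.41. Hspa4l gave 7.03, 7.06 and 8.32, a spread of 2.44-fold that came from array 3.

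The mitochondrial chaperonin genes were both far above the limit. Hspd1, the Hsp60 gene, gave 9.43, 9.43 and 9.90 log2 on arrays 1, 2 and 3. Hspe1, the Hsp10 gene, gave 10.73, 10.88 and 11.42. Each was highest on array 3, in both of its probe sets, as were 55.3% of all genes with means of 9 to 10 log2 and 64.8% of those from 10 to 12. The 2 probe sets of Hspd1 lay 1.26 log2 apart and those of Hspe1 0.06 apart. Mouse genes such as Hspd1, Hspe1, Hspa8 and Hsp90aa1 have processed pseudogenes of similar sequence, and their levels are uncertain to that extent.

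Of 9 subunit genes of the CCT ring, 8 were above the limit on all arrays, beside 36.8% of all genes. The exception was the testis subunit Cct6b. Tcp1, the alpha subunit, gave 8.25, 8.45 and 9.25 log2 on arrays 1, 2 and 3. Cct2, Cct4, Cct5, Cct7 and Cct8 had means between 8.01 and 9.74, and their SDs ran from 0.11 for Cct4 to 0.31 for Cct8. Like Tcp1, these 5 were highest on array 3, though Cct4 was highest on array 1 after quantile normalisation. Cct3 was highest on array 2, at 7.40, 8.22 and 7.97, and Cct6a on array 1, at 8.85, 8.10 and 8.61. Cct6b gave 3.90, 3.67 and 3.50, below the limit by over 2 log2 on each array. Cct6a and Cct6b are alternative zeta subunits, and the 2 genes thus fell on opposite sides of the limit.

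**Figure D2:**
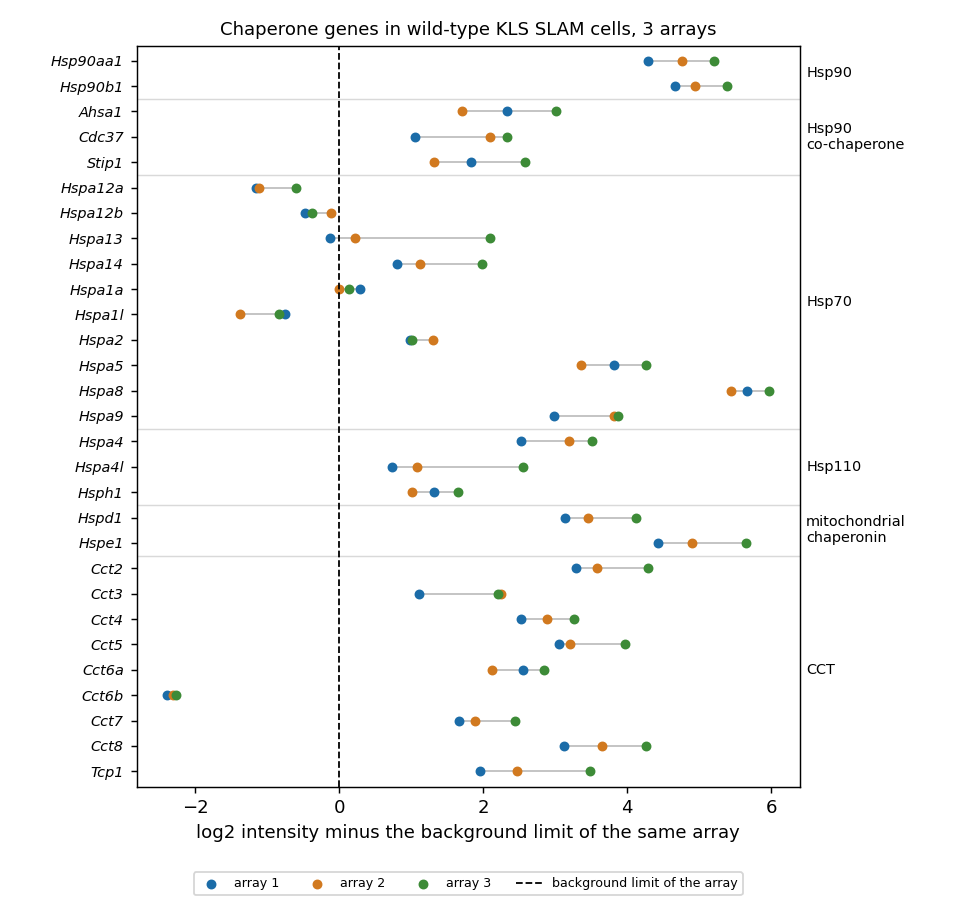
Log2 intensity of each chaperone gene minus the background limit of the same array (horizontal axis), with 1 point per array for the 3 wild-type arrays and genes grouped by family. The dashed line at 0 is the limit, which is highest on array 1 (6.30) and lowest on array 3 (5.77), so points of array 3 lie further right than their raw levels. Cct6b, Hspa1l, Hspa12a and Hspa12b lie left of the line on every array, and Hspa1a straddles it.

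J-domain proteins, the delivery partners of Hsp70, had 31 of 43 genes above the limit on all arrays, beside 36.8% of all genes. A further 7 passed it on 1 or 2 arrays and 5 on none, beside 42% of all genes on none. In class A, Dnaja1, the main cytosolic partner of Hspa8, gave 10.38, 10.30 and 10.68 log2 on arrays 1, 2 and 3. These are averages of 2 probe sets that lay 1.53 log2 apart, so its level is uncertain to that extent. Dnaja2 gave 8.26, 8.21 and 8.72, while Dnaja3, the mitochondrial partner of Hspa9, gave 7.26, 8.23 and 7.77. Dnaja3 and Hspa9 were both lowest on array 1 and highest on array 2, as were Bag1, Cct3, Dnajc7 and Dnajc8 among others. Array 2 was highest for 23 of 90 members, beside 38.6% of all genes. Dnaja4 passed the limit on array 2 alone, at 6.03, 6.37 and 5.76.

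Class B had 9 of 13 genes above the limit on all arrays, beside 36.8% of all genes. Dnajb1, the stress-inducible Hsp40, gave 6.88, 6.47 and 6.27 log2. It was highest on array 1, as were Hspa1a and 31.6% of all genes. Dnajb6, a suppressor of protein aggregation that holds the heat shock element, gave 7.07, 7.82 and 8.50, 2.7-fold between arrays 1 and 3. The others above the limit were Dnajb4, Dnajb5, Dnajb8, Dnajb9, Dnajb11 and the ER membrane forms Dnajb12 and Dnajb14. Dnajb5 was the least spread of class B at 6.40 ± 0.05 (SD, n = 3). Dnajb2, best known from neurons, was below the limit at 5.52 ± 0.17, as were Dnajb3, Dnajb7 and Dnajb13.

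J-domain partners of BiP, with their J domain in the ER lumen, were all 5 above the limit, beside 36.8% of all genes. Dnajc3, an ER co-chaperone that also restrains the kinase PERK, gave 8.57, 8.65 and 8.58 log2 on arrays 1, 2 and 3. Its 2 probe sets held identical values on all arrays and so count as a single measurement. Dnajb11, a stable partner of BiP, gave 7.45, 7.80 and 7.74, and Dnajb9, an induced one, gave 7.04, 6.94 and 7.77. Dnajc10, a disulfide reductase, gave 7.82, 7.62 and 7.52, and Dnajc1 was at 7.13 ± 0.41 (SD, n = 3). The promoter of Dnajc3 shares the ER stress element with those of Hspa5 and Hsp90b1, and all 3 genes were above the limit on every array. The 3 genes did not spread alike: Hspa5 was low on array 2 by 1.7-fold, while Hsp90b1 and Dnajc3 differed by 1.17-fold and 1.05-fold at most.

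Class C, a mixed group with many specialised roles, had 19 of 26 genes above the limit on all arrays, beside 36.8% of all genes. Dnajc7, a partner of both Hsp70 and Hsp90, gave 8.66, 9.58 and 9.11 log2 on arrays 1, 2 and 3. Dnajc8, associated with splicing, and Dnajc9, a histone chaperone, had means of 9.34 ± 0.46 and 9.06 ± 0.39. Dnajc21, which acts in ribosome assembly, and Dnajc19, of the mitochondrial import motor, were at 8.14 ± 0.41 and 7.93 ± 0.42. Dnajc24, needed for the diphthamide of elongation factor 2, was at 7.33 ± 0.55, and Dnajc6, the clathrin-uncoating auxilin, at 6.49 ± 0.10 (SD, n = 3 each). Apart from Dnajc2 and Dnajc3, whose values are given above, the remaining genes above it had means from 6.43 for Dnajc16 to 7.73 for Dnajc13. Those on 1 or 2 arrays were Dnajc11, Dnajc12, Dnajc15, Dnajc18, Dnajc27 and Dnajc28, and Dnajc22 was below on all, at 4.87 ± 0.11.

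**Figure D3:**
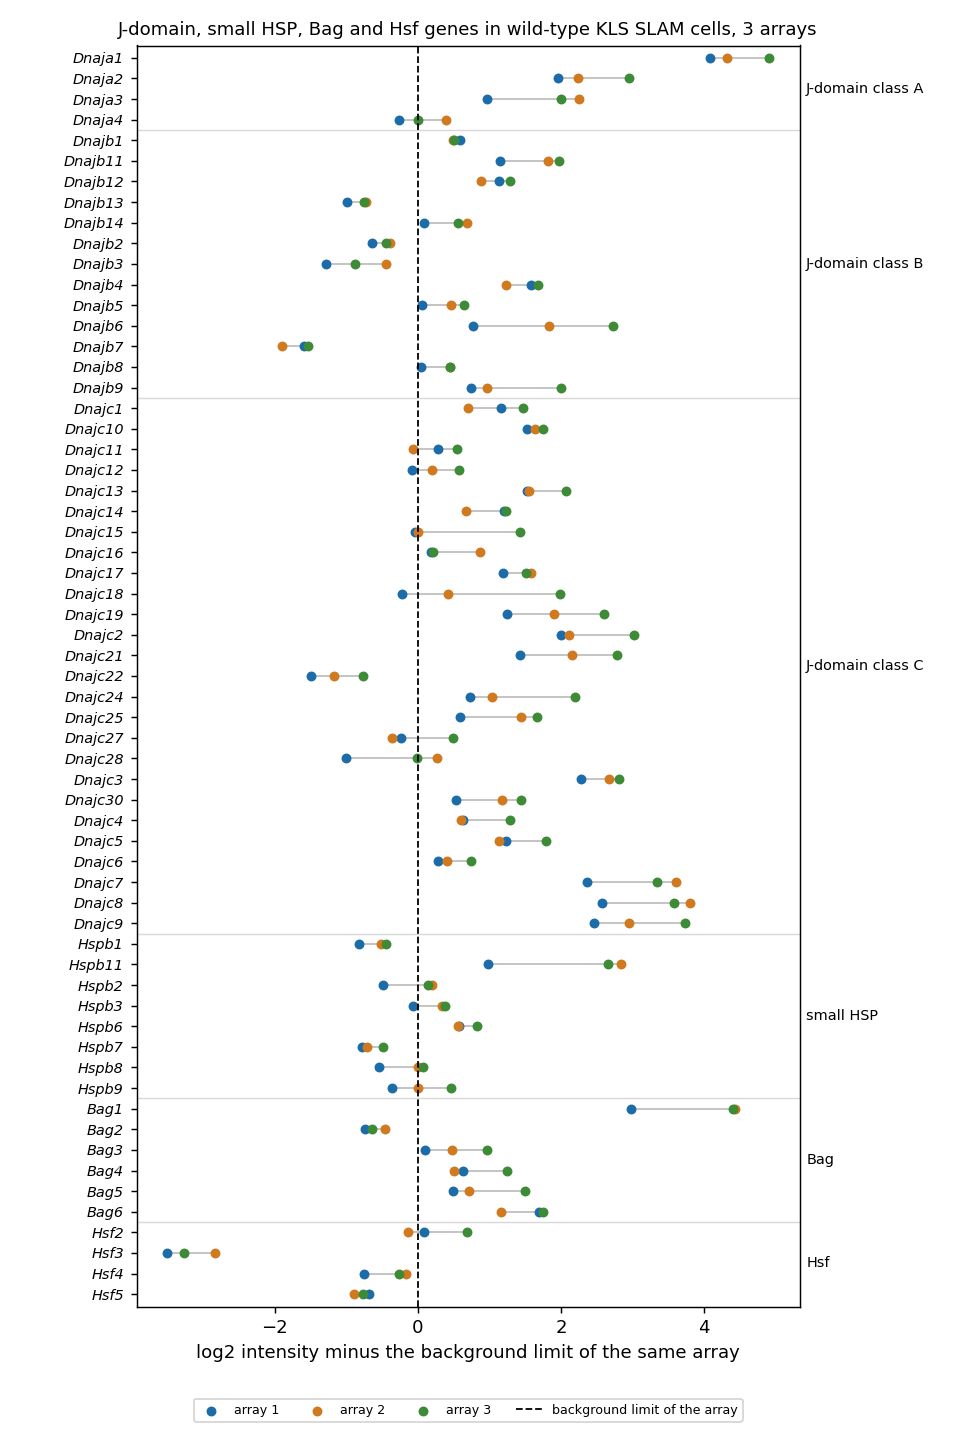
Log2 intensity minus the background limit of the same array (horizontal axis) for J-domain, small heat shock protein, Bag and Hsf genes, with 1 point per array. Dnaja1 and Bag1 lie far right of the dashed limit, most small heat shock protein genes lie close to it, and Hsf3, Hsf4 and Hsf5 lie left of it on all 3 arrays.

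Small heat shock proteins hold unfolded clients without ATP. Of their 8 genes, 2 were below the limit on every array (25%), beside 42% of all genes. Another 2 were above it on all arrays (25%), beside 36.8%. One was Hspb11, at 7.27, 8.81 and 8.42 log2 on arrays 1, 2 and 3, which despite its name encodes an intraflagellar transport subunit. The other was Hspb6, a muscle form, at 6.87, 6.54 and 6.60. The heat-inducible Hspb1 gave 5.47, 5.46 and 5.32 and was below it on each array, as was Hspb7 at 5.36 ± 0.14 (SD, n = 3). Hspb2, Hspb3, Hspb8 and Hspb9 missed the limit of array 1 and passed those of arrays 2 and 3.

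Bag genes encode nucleotide exchange factors that tie Hsp70 to degradation and survival pathways. Of the 6, 5 were above the limit on all arrays, beside 36.8% of all genes. Bag1 gave 9.27, 10.41 and 10.18 log2 on arrays 1, 2 and 3, lowest on array 1 by 2.19-fold. Bag3, a stress-inducible guide of selective autophagy, gave 6.39, 6.46 and 6.74, at its closest 0.10 log2 above the limit. Bag6, of the tail-anchored protein pathway, gave 7.99, 7.14 and 7.51. Bag4 gave 6.93, 6.48 and 7.02 and Bag5 gave 6.78, 6.69 and 7.27, both lowest on array 2. Bag2 was below the limit on each array, at 5.56, 5.52 and 5.12.

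Of the heat shock factors measured, 0 of 4 were above the limit on all arrays, beside 36.8% of all genes. Hsf2 passed it on arrays 1 and 3, at 6.38 and 6.46 log2, and missed it on array 2 at 5.84. Hsf4, known from the lens, gave 5.54, 5.81 and 5.50 on arrays 1, 2 and 3, and Hsf5, known from testis, gave 5.62, 5.09 and 5.01. Hsf3 gave 2.78, 3.14 and 2.50, so these 3 genes were below the limit on each array, beside 42% of all genes.

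Members known mainly from testis were counted separately. Of Hspa1l, Hspa2, Hspb9, Hsf5, Cct6b, Dnajb3, Dnajb7, Dnajb8 and Dnajb13, 2 of 9 were above the limit on all arrays, Hspa2 and Dnajb8, beside 36.8% of all genes, and 6 were below it on each, beside 42%. Of the 20 members grouped as general cytosolic chaperones and co-chaperones, 19 were above it, beside the same 36.8%, with Dnaja4 the exception. Hspa1a was kept out of this group as inducible, and the small heat shock protein genes, the Bag genes and many J-domain genes were not placed in it. Among those left out, Hspb1, Bag2 and Dnajb2 were below the limit on every array, so the share depends on the grouping. These groups were drawn up with the values known and were not tested. By their lowest margin, members close to the limit were Dnajb8, Dnajb5, Dnajb14, Bag3 and Dnajc16, above it by 0.05 to 0.18 log2. Hspa1a, Dnajc15, Hspb3, Dnajc11, Dnajc12, Hspa13, Hsf2 and Dnajc18 were short of it by up to 0.22 log2 on their lowest array. Other members were close on a single array. Hspb8 and Hspb9 passed array 2 by 0.003 and 0.005 log2, and Dnaja4 and Dnajc28 missed array 3 by 0.003 and 0.006. Hspa12b and Hsf4, below on every array, missed array 2 by 0.11 and 0.17. With array 1 left out, 7 more members were above the limit on both remaining arrays, while the share of all genes above it was 46.9% in place of 36.8%.

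Genes that work with these chaperones were mostly above the limit too. Of 62 measured genes in 6 lists of partners, 54 were above it on all arrays, beside 36.8% of all genes, and 1 on none, beside 42%. The Hsp90 partners had 13 of 14, among them Ptges3 (p23) at 10.22 ± 0.34 and Fkbp4 at 8.53 ± 0.15 log2, with Aarsd1 at 6.07, 6.09 and 6.36 missing array 1. The list of Hsp70 partners had 11 of 13, with the adaptor St13 at 9.48 ± 0.26 and the ubiquitin ligase gene Stub1 at 7.48 ± 0.22. Sgta missed array 1, at 5.95, 6.47 and 6.05, and Hspbap1 all arrays, at 5.60, 5.40 and 5.31. Hspbap1 was placed in this list, but it is named as a partner of the small heat shock protein Hspb1 and not of Hsp70.

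The counts of the other lists likewise stand beside 36.8% of all genes. Prefoldin and other helpers of CCT had 7 of 9 above the limit, with Pfdn1 at 7.02 ± 0.76 and Pfdn2 at 9.81 ± 0.64 log2. Pfdn4, at 5.74, 6.34 and 7.21, and Pdcl, at 6.07, 6.83 and 6.88, missed array 1 alone. Of the ER folding partners 11 of 12 were above it, with the lectin chaperones Calr at 9.55 ± 0.03 and Canx at 10.75 ± 0.18, and Pdia4, at 6.08, 5.74 and 5.82, the exception. Mitochondrial chaperones and proteases had 7 of 8, with Trap1, the mitochondrial Hsp90, at 7.69 ± 0.33 and Clpb at 6.51 ± 0.49, while Bcs1l missed array 2 at 5.94. Other genes of the heat shock response had 5 of 6, with the autophagy receptor gene Sqstm1 at 7.02 ± 0.29 (SD, n = 3 for each value here and in the lists above), while Hmox1, at 5.87, 6.23 and 6.96, missed array 1.

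The spread between the 3 arrays was described by the SD of each gene. The median SD was 0.30 log2 for the members and 0.22 for all genes, or 0.31 for the 61 members above the limit and 0.26 for all genes above it. These pairs are not matched for level, since the median level was 7.19 log2 for members and 5.96 for all genes. By range of mean level, the median SDs of members and all genes were 0.19 and 0.19 (5 to 6), 0.29 and 0.22 (6 to 7) and 0.39 and 0.32 (7 to 8). Above that they were 0.37 and 0.33 (8 to 9), 0.31 and 0.30 (9 to 10) and 0.20 and 0.27 (10 to 12). The variance of each gene was set against the variance trend at its level with limma, as a one-sided F test adjusted by Benjamini-Hochberg over all 19938 genes. By that limma test 0 members passed an adjusted p of 0.05, as did 0% of all genes, and at an unadjusted p under 0.05 there were 3 members, beside 5.1% of all genes. With 3 arrays, only a very large excess over the trend could pass this test, so a gene that did not pass is not shown to be equal on the arrays.

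The 5 members with the smallest p were Hspa13, Dnajc18, Dnajc15, Hspb11 and Dnajc28. Hspa13 had an SD of 0.97 log2, 3.54 times the trend, with an adjusted p of 0.909 in limma. Dnajc18, at 6.07, 6.39 and 7.76, had 3.25 times the trend (adjusted p = 0.929, limma). Dnajc15, which resembles the mitochondrial import gene Dnajc19, gave 6.25, 5.97 and 7.19. Like Hspa13 and Dnajc18 it was highest on array 3. Hspb11 was lowest on array 1, as was Dnajc28, at 5.29, 6.24 and 5.76.

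**Figure D4:**
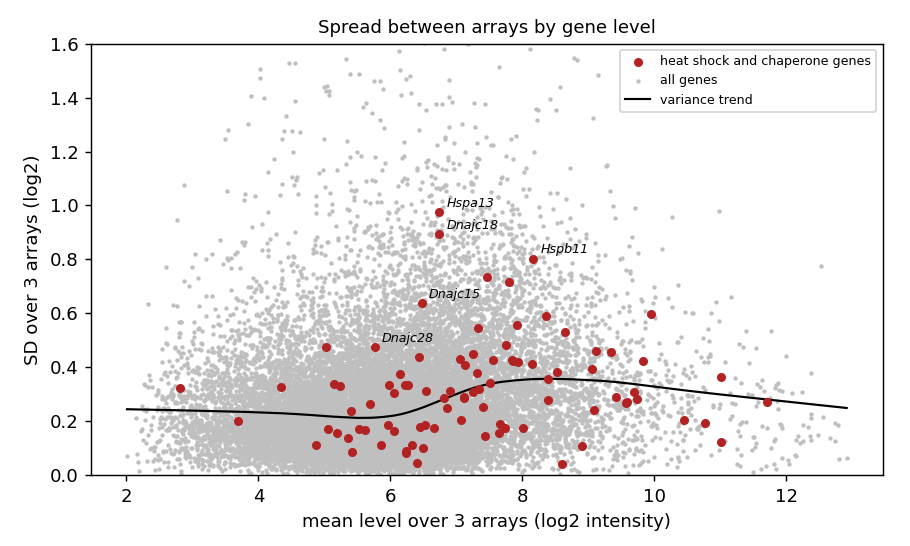
SD over the 3 arrays (vertical axis, log2) against mean level (horizontal axis, log2 intensity) for the 90 heat shock and chaperone genes and for all genes, with the limma variance trend as a line. The vertical axis ends at 1.6, beyond which 31 genes lie, none of them a chaperone gene. Hspa13 and Dnajc18 stand highest among the chaperone genes and lie within the cloud of all genes.

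The array with the highest value was not evenly shared, among members or among all genes. Array 3 gave the highest value for 42 of 90 members, beside 29.8% of all genes, and for 33 of the 61 above the limit, beside 40.5% of all genes above it. Among all genes pooled, the share highest on array 3 was larger at higher mean levels. Between 5 and 6 log2 array 3 was highest for 2 of 15 members, beside 23.1% of all genes in that range. Between 6 and 7 it was highest for 10 of 21 members, beside 32.4% of all genes, and between 7 and 8 for 12 of 24, beside 45.9%. Between 8 and 9 it was highest for 7 of 10 members, beside 53.9% of all genes, between 9 and 10 for 6 of 11, beside 55.3%, and between 10 and 12 for 4 of 5, beside 64.8%. The differences between members and all genes within these ranges were not tested. In quantile-normalised values the count for all members was 35 of 90, beside 34.5% of all genes, and in median-centred values 45 of 90, beside 35.6%. For 15 members the highest array changed with the scaling, among them Ahsa1, Cdc37, Dnajc3 and Hspa2.

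**Figure D5:**
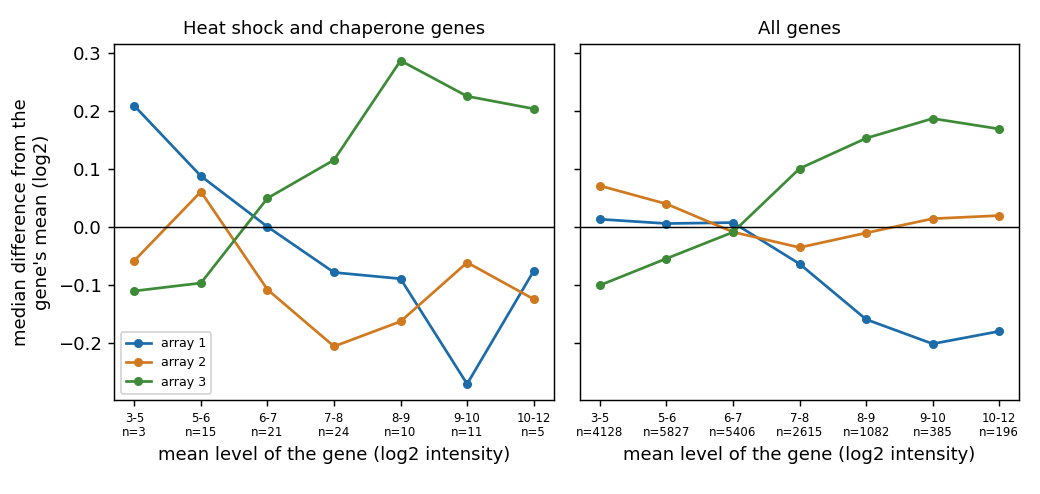
Median difference of each array from the mean of the gene (vertical axis, log2) by mean level (horizontal axis, log2 intensity) for the chaperone genes on the left and for all genes on the right, with the number of genes in each range. In both panels array 3 lies below 0 for dim genes and above 0 from 7 log2 upward. The ranges from 3 to 5 and from 10 to 12 hold only 3 and 5 chaperone genes, and Hsf3, below 3 log2, is not drawn.

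Array 1 was highest for 25 of 90 members, beside 31.6% of all genes. Among these 25, Hspa8, Hsph1, Hspa1a and Dnajb1 were highest on array 1 in the deposited, the median-centred and the quantile-normalised values, as were others such as Cct6a, Bag6, Dnajb4, Dnajc1 and Dnajc10. Hspa5 was highest on array 1 in the deposited and quantile-normalised values and on array 3 in the median-centred ones. For Hspa8 all 3 probe sets were highest on array 1, while all 3 probe sets of Hsp90aa1 were highest on array 3. Of the 7 neutrophil genes, 6 were lowest on array 1 and Mpo, at 8.29, 7.53 and 7.88 log2 on arrays 1, 2 and 3, was highest there. The part of neutrophil and megakaryocyte transcripts in the array differences of the chaperone genes was not tested. The limma adjusted p of the variation test was 0.994 for Hspa1a and Dnajb1 and 0.997 for Hspa8 and Hsph1.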

How the data were processed

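The labels' protocols describe column purification, amplification and biotin labelling of RNA from sorted KLS SLAM cells. Per the submitters' processing notes, the authors used RMA in Expression Console of Affymetrix on the 3 arrays. The sources used here do not name versions, a genome build or which arrays were normalised as a set. The deposited values were read as intensity on a linear scale (2.82 to 18384), and log2 was taken with no offset. The number of arrays limits the precision.

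Of 35554 probe sets, 21789 named 1 gene through the platform annotation, 1621 several and 12144 none. Log2 values of probe sets of a gene were averaged. Variation was tested in R 4.3.3 by limma 3.58.1 (variance on 2 degrees of freedom against a robust trend). The test was checked on simulated data in which the genes with added variance exceeded the trend by far more than any member did. That check therefore does not cover differences of the size seen in the members. Members, families, partner lists and background limit were chosen with earlier results of these data known. Named genes were all members, with values on every array for the main families, the 5 smallest variation p-values and, of each partner list, the first 2 genes and the exceptions. Alternatives covered the limit, the averaging, the normalisation, the trend and each array left out.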

Additional observations from a re-analysis of the deposited data

How the results depend on the processing

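The count of 61 members above the background limit was 41 with the 99th percentile of the receptor genes as the limit (beside 17.4% of all genes) and 71 with the 90th (beside 50.6%). It ran from 61 (without array 3, beside 37% of all genes) to 68 (without array 1, beside 46.9%) and was 64 without array 2 (beside 38.7%). It was 61 after quantile normalisation and with the brightest probe set of each gene and 60 with the dimmest, where Dnajc13 was lost. The 41 members at the 99th percentile lacked 20 of the 61, among them Bag3, Dnajb1, Dnajb6, Hspa4l and Hspa14. For the partner genes the count of 54 became 32 at the 99th percentile and ran from 54 to 59 with 1 array left out. The count of members called variable was 0 under all 10 alternatives, including the test of single probe sets, which was chosen after the data were seen. Among all genes or probe sets it was 0 in each setting as well, so these repeats say nothing particular to the members. At an unadjusted p under 0.05 (limma) the member count ran from 2 to 5 genes, beside 4.74% to 5.80% of the genes tested. It was 10 probe sets in the test of single probe sets, beside 5.32% of all probe sets. With 2 units of the heat shock element in place of 3, 20 of 75 member promoters held a match, beside 17% of all genes. With 3 units and only the bases before the start 3 did, without Hsph1, beside 0.514% of all genes. Among these 3, Hspd1 and Hspe1 share the same stretch of DNA. Levels of the 90 members moved by over 1 SD for 5 genes with the brightest probe set, for 28 when 16 was added before log2, and for 0 after quantile normalisation. No paired analysis was possible because all samples belong to a single group. Dim genes near the limit are the least certain, since no detection calls were used.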

Other observations

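Dnajc13, the endosomal J-domain protein RME-8, was covered by 15 probe sets, 13 of them above the background limit on all arrays. Their means ran from 5.83 to 9.12 log2, and their SDs over the arrays from 0.02 to 1.51. Array 1 was highest for 3 of them, array 2 for 4 and array 3 for 8, and the averaged gene value was steady at 7.82, 7.53 and 7.85. When each of 21789 probe sets was tested by itself with limma, 10 of the 113 member probe sets had an unadjusted p under 0.05, and 8 of the 10 belonged to Dnajc13. None passed after adjustment (smallest adjusted p = 0.812, limma), as did none of all probe sets, of which 5.32% had an unadjusted p under 0.05.

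Among the members with the shorter element of 2 alternating GAA units (GAANNTTC or TTCNNGAA) were the stress-inducible genes Hspa1a, at -104 to -97, Hspb1, with matches at -117 to -110 and at -97 to -90, and Bag3, at 43 to 50 after its start. The CCT genes Cct2, Cct5 and Cct6a each held a match, Cct2 at -42 to -35, Cct5 at -34 to -27 and Cct6a at 25 to 32. The windows of Cct3, Cct6b, Cct7, Cct8, Tcp1 and the stress-inducible Dnajb1 held none. The 20 members with a match also included Hsf5, Cdc37, Dnajc10, Dnajc27 and Hspb3. This shorter element is common, and 17% of all genes held it.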
